A study of Mus musculus with 11 samples.

Results

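The guanylate binding proteins (GBPs) and immunity-related GTPases (IRGs) were examined in lacrimal glands of male NOD mice, as a readout of the IFN-γ response beside the type I IFN response. The members were chosen by name: *Gbp2*, *Gbp3*, *Gbp5*, *Gbp6*, *Gbp7*, *Irgm1*, *Irgm2*, *Igtp*, *Iigp1* and *Tgtp1*. Of these 10 genes, 8 are named in the main table of 19058 genes, and all 8 are among the 13937 genes that passed the filter on low counts. *Gbp5* and *Gbp6* appear as names only in the other deposited table, on rows that the main table calls otherwise, and these 2 rows are described apart.

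RNA was sequenced from whole lacrimal glands of 3 wild-type (WT), 5 *Tlr7* knockout (KO) and 3 *Ifnar1* KO mice, with 1 library per mouse. NOD (nonobese diabetic) mice develop spontaneous lymphocytic inflammation of this tear-producing gland, mainly in males, and every mouse here carried the NOD background. WT and *Tlr7* KO mice were 20 to 22 weeks old, while no age for the *Ifnar1* KO mice is given in the sources used here, so age and *Ifnar1* genotype cannot be told apart. TLR7 is an endosomal receptor for single-stranded RNA that drives type I IFN production. The *Tlr7* KO line carries 1 edited allele, a deletion of 2 base pairs, made by Cas9 in NOD embryos and bred to homozygosity. IFNAR1 is a chain of the receptor for all type I IFNs, and the *Ifnar1* KO mice were homozygous for the em16 allele on NOD. The *Ifnar1* KO group was selected by outcome. Per the study's methods, a further *Ifnar1* KO sample was excluded for its likeness to WT, both in expression and in gland inflammation. The WT and *Tlr7* KO groups were left whole. Every *Ifnar1* KO value below therefore describes the mice that were kept, not all that were sequenced. Both are germline knockouts, absent from every cell type of the mouse and not from the gland alone.

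GBPs and IRGs are GTPases that cells make in response to IFNs. They gather on vacuoles that hold intracellular pathogens and disrupt them, and GBPs also promote inflammasome activation. IFN-γ, made mainly by T cells and NK cells, is their strongest known inducer. It signals through IFNGR1, IFNGR2, JAK1 and JAK2 to the gamma-activated sequence (GAS), and through IRF1, which binds the IFN-stimulated response element (ISRE). Type I IFN signals through IFNAR1 and IFNAR2 to a complex with STAT2 and IRF9 that binds the ISRE.

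The promoters are shown because both pathways are known to act through these elements. RefSeq sequence of the reference mouse genome (GRCm38.p6), from 250 bases before to 50 bases after the gene start, was found for 8 of the 10 genes, 9 promoters in all. The reference strain is not NOD, so NOD variants are not represented. The ISRE was searched as GAAANNGAAA and the GAS as TTCNNNGAA (N for any base), on both strands. All 8 genes had an ISRE match, against 3.44% of 32851 mouse promoters of the same length, and 5 of the 8 also had a GAS match, against 8.3% of promoters for the GAS and 0.454% for both. *Iigp1* and *Gbp6* had no promoter entry. The promoters of 3 IRG genes are printed first because they share 1 arrangement, followed by the promoters of *Irgm1*, with 2 overlapping ISRE matches and no GAS match, and of *Gbp2*, with 1 ISRE match on the other strand. Each reads 5′ to 3′ along its gene, and capitals mark the motif matches.
Igtp: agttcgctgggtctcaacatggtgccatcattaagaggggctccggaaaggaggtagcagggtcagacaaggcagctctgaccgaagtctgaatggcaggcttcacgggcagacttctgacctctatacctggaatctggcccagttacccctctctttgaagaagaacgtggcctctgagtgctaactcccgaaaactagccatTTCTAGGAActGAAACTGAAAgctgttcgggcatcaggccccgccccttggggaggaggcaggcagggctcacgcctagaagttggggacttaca
Irgm2: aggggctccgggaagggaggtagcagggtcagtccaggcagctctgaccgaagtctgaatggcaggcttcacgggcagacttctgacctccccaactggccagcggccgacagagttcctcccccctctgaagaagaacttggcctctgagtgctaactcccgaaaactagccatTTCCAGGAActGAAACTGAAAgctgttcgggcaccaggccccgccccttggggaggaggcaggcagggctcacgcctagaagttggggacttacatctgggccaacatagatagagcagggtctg
Tgtp1: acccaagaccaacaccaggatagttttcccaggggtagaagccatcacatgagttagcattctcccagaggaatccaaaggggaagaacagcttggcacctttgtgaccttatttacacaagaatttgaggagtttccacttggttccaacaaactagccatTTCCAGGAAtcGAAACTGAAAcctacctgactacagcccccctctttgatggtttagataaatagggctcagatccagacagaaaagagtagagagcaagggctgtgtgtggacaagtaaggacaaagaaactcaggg
Irgm1: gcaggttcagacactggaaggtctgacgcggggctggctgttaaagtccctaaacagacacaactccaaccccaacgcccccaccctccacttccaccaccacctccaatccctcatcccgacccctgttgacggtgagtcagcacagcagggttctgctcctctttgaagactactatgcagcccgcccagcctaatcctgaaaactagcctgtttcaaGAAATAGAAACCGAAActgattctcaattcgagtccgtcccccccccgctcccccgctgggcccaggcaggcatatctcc
Gbp2: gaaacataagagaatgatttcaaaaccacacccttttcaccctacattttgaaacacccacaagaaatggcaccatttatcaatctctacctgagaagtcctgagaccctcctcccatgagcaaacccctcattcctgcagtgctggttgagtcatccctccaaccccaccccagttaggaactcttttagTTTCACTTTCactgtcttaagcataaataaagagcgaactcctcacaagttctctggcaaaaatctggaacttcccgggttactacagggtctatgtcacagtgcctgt
These windows lie at chr11:58199306-58199605 on the plus strand (*Igtp*), chr11:58214727-58215026 on the plus strand (*Irgm2*), chr11:48992197-48992496 on the minus strand (*Tgtp1*), chr11:48871371-48871670 on the minus strand (*Irgm1*) and chr3:142620413-142620712 on the plus strand (*Gbp2*).

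In *Igtp*, *Irgm2* and *Tgtp1* the GAS match came first and the ISRE match followed after 2 bases, as the printed capitals show. The GAS began at position -45, -75 and -88 from the gene start, respectively, and the ISRE at -34, -64 and -77. *Gbp7* and *Gbp5* had both motifs too, farther apart, and *Gbp3* had 2 overlapping ISRE matches in 1 of its 2 promoters and none in the other. Of 8 other GBP and IRG genes with a promoter entry, 5 had an ISRE match, 3 a GAS match and 3 both. Of 13 type I IFN leaning targets with a promoter entry, 6 had an ISRE match and 2 a GAS match. Of 6 IFN-γ leaning targets with an entry, 0 had an ISRE match and 2 a GAS match. A match describes letters in this window and is not a measured binding site.

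**Figure D1:**
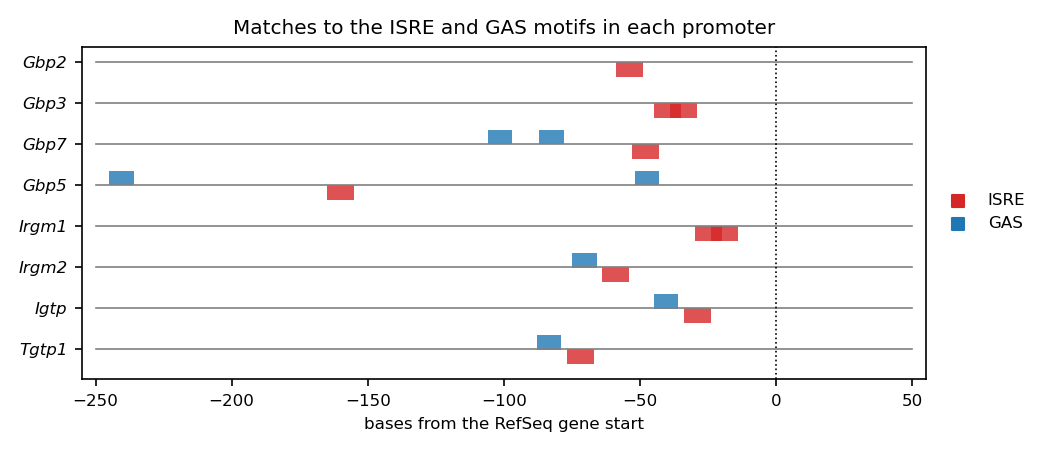
Position of each ISRE match (red) and GAS match (blue) relative to the RefSeq gene start, in bases, for 8 member genes. The horizontal line is the searched window, from 250 bases before to 50 bases after the start, and the promoter of *Gbp3* that holds matches is the one drawn. *Irgm2*, *Igtp* and *Tgtp1* have a GAS 2 bases before an ISRE.

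Libraries held 20512315 to 28814250 assigned counts, so 3 counts, taken as the floor, correspond to 0.0820 to 0.157 CPM (counts scaled to the effective library size), a limit that covers counting error only. *Tlr7* transcript was at 1.53 to 2.92 CPM in WT and 0.496 to 0.949 CPM in *Tlr7* KO mice, without overlap (edgeR adjusted p = 0.00364). It also fell in *Ifnar1* KO mice, to 0.251 to 0.822 CPM (adjusted p = 0.0260). A deletion of 2 base pairs need not remove a transcript. *Ifnar1* transcript fell from 10.6 to 15.0 CPM in WT to 8.37 to 9.61 CPM in *Ifnar1* KO (adjusted p = 0.0485) and to 8.28 to 11.1 CPM in *Tlr7* KO mice (adjusted p = 0.0220), and the knockouts did not differ past the test (adjusted p = 0.717). Gland epithelium markers summed to 1061 to 1321 CPM in WT, 1557 to 1615 CPM in *Tlr7* KO and 1568 to 1761 CPM in *Ifnar1* KO mice, with every knockout mouse above every WT mouse. This separation depended on the TMM factors, which were 0.864 to 1.48 in WT, 0.692 to 0.974 in *Tlr7* KO and 0.937 to 1.09 in *Ifnar1* KO mice. Scaled to the library totals alone, the sums were 1142 to 1712, 1080 to 1517 and 1650 to 1731 CPM, and WT overlapped both knockouts. Salivary gland markers (*Bpifa2*, *Amy1* and *Dcpp1*) summed to 2435 CPM in WT 3, 2091 CPM in *Ifnar1* KO 2 and 178 CPM in *Ifnar1* KO 1, against at most 2.99 CPM in every other mouse. Skeletal muscle markers summed to 297 CPM in WT 1 and 214 CPM in WT 2 and in *Tlr7* KO 4, and to at most 8.67 CPM elsewhere. The part of these transcripts in the results was not tested. The GTPase counts are given below with single mice left out.

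Per kilobase of exon, the members ran from *Igtp* (9.46 CPM per kb on average over all mice) through *Gbp2* (5.97), *Irgm1* (4.16), *Irgm2* (2.71), *Gbp3* (1.49), *Tgtp1* (1.23) and *Iigp1* (0.905) to *Gbp7* (0.836). The order changed with the group. In *Ifnar1* KO the mean of *Gbp2* (1.51 CPM per kb) was above that of *Igtp* (1.46), and in *Tlr7* KO that of *Gbp7* (0.637) was above that of *Iigp1* (0.568). *Irgm1* lay above *Irgm2*, and *Irgm2* above *Gbp3*, in 11 of 11 mice. *Igtp* lay above *Gbp2*, and *Gbp2* above *Irgm1*, in 9 of 11 mice. *Gbp3* lay above *Tgtp1* in 8 and *Tgtp1* above *Iigp1* in 7 of 11 mice, and *Iigp1* lay above *Gbp7* in only 5 of 11 mice. The members varied together from mouse to mouse. Pearson's r between pairs of members was 0.929 to 0.997 over 11 mice on log2 CPM, and 0.835 to 0.993 once group means were removed. These values are descriptions, since all members share each mouse's library and cell makeup.

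In *Tlr7* KO glands the GTPase genes were lower than in WT by a median of 1.71 on the log2 scale, about 3.28-fold. In this bulk tissue, fewer cells of a type and less RNA per cell cannot be told apart. Of the 8 members, 5 fell past the test (*Gbp2*, *Irgm2*, *Igtp*, *Iigp1* and *Tgtp1*), where 17.4% of the 13937 genes tested were called lower in *Tlr7* KO and 32.7% were called in either direction. The other 3 (*Gbp3*, *Gbp7* and *Irgm1*) had adjusted p = 0.0528 to 0.0687 (edgeR, quasi-likelihood). At an unadjusted p under 0.05 there were 8 of 8, beside 44.9% of all genes, and at an adjusted p under 0.01 there were 0, beside 14.1%. All 8 estimates were at least 2-fold lower, as were those of 14% of all genes, and the median over all genes was -0.04. None of the 8 separated the groups fully (14.5% of all genes had every *Tlr7* KO mouse below every WT mouse), because WT 2 lay within the range of the *Tlr7* KO mice for each of them. WT 2 was 2.73-fold to 3.5-fold below the mean of WT 1 and WT 3 for the 8 genes. These calls rest on few mice, and over all genes 2601 to 6595 were called with 1 mouse left out, against 4564 with every mouse. No member passed without WT 1, WT 3, *Tlr7* KO 1 or *Tlr7* KO 4, 1 passed without *Tlr7* KO 3 and 4 without *Tlr7* KO 5, while all 8 passed without WT 2 or without *Tlr7* KO 2. Fitting all 11 mice at once gave 1 and robust estimation gave 2, and every estimate was lower in *Tlr7* KO under each of these settings.

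In *Ifnar1* KO glands the same genes were lower than in the same 3 WT mice by a median of 3.2 on the log2 scale. All 8 members fell past the test (edgeR adjusted p = 0.0234 to 0.0482), where 12.4% of genes were called lower and 19.2% in either direction. At an unadjusted p under 0.05 there were also 8 of 8, beside 37.6% of all genes, and all 8 were at least 2-fold lower, beside 18% of all genes. For all 8, every *Ifnar1* KO mouse lay below every WT mouse, as for 21.2% of all genes. This separation and these calls hold for the 3 mice kept after a WT-like *Ifnar1* KO sample had been taken out, and the values with that sample are not analysed here. The fall ran from 7.36-fold for *Irgm1* to 16.4-fold for *Igtp*. The adjusted p-values lay close under 0.05 and none was under 0.01, a level that only 0.00718% of genes reached. With 1 mouse left out, 0 to 4643 of all genes were called, against 2677 with every mouse. No member passed when WT 1, WT 3, *Ifnar1* KO 1 or *Ifnar1* KO 3 was left out, and all 8 passed when WT 2 or *Ifnar1* KO 2 was. The median stayed between -4.32 and -2.70 whichever mouse was left out. Both comparisons share the WT mice and are therefore not independent.

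Set directly against each other, the knockouts did not differ past the test for any member. Every estimate was higher in *Tlr7* KO than in *Ifnar1* KO, by 1.18 to 2.06 on the log2 scale with a median of 1.47, but 0 of 8 passed with edgeR and 0 with DESeq2 (adjusted p = 0.129 to 0.508 with edgeR), where 0.926% of genes were called higher in *Tlr7* KO and 1.79% either way. At an unadjusted p under 0.05 there were 5 of 8, beside 16.3% of all genes. *Gbp3* and *Irgm1*, 2 of the 8, were higher in each of the 5 *Tlr7* KO mice than in each of the 3 *Ifnar1* KO mice, as were 5.44% of all genes. With 1 mouse left out, 85 to 877 of all genes were called, against 250 with every mouse. Without *Ifnar1* KO 2, the highest of its group for all 8 genes, 3 members passed and their median was 2.74. The standard errors of these estimates were 0.52 to 0.96.

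**Figure D2:**
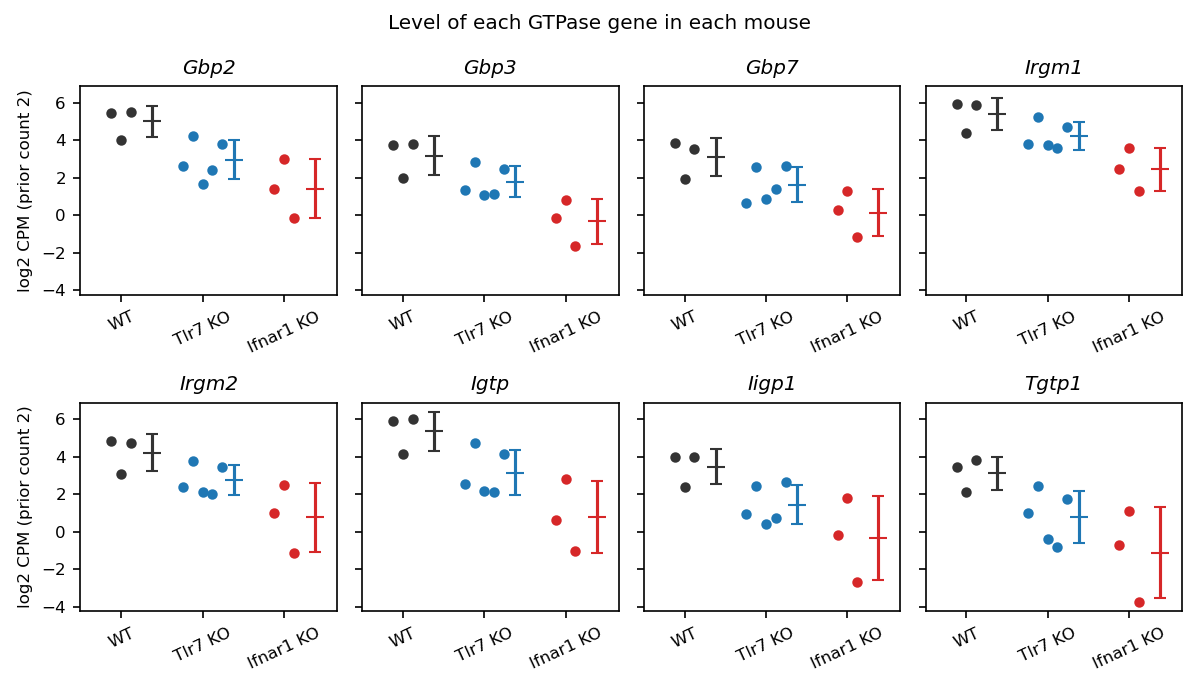
Level of each of the 8 members in each mouse (points, log2 CPM with a prior count of 2), with the group mean and SD to the right of the points, for WT (n = 3), *Tlr7* KO (n = 5) and *Ifnar1* KO (n = 3) mice. The lowest WT mouse, WT 2, overlaps the upper *Tlr7* KO mice in every panel, and the *Ifnar1* KO mice lie below all WT mice.

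The regulatory IRGs are *Irgm1*, *Irgm2* and *Igtp* (also known as Irgm3). They sit on the cell's own membranes and keep the effector IRGs inactive there, and *Irgm1* also acts in autophagy and in the survival of lymphocytes. *Irgm1* (chr11:48861968-48871683, minus strand) was at 60.7, 21.1 and 60.0 CPM in WT 1 to 3, at 13.8, 38.7, 13.4, 11.9 and 26.7 CPM in *Tlr7* KO 1 to 5, and at 5.43, 11.9 and 2.42 CPM in *Ifnar1* KO 1 to 3. It was the member least reduced in *Tlr7* KO, with 2 of the 5 mice above the lowest WT mouse, and the lowest *Tlr7* KO mouse was just above the highest *Ifnar1* KO mouse. Its log2 fold change was -1.19 ± 0.45 (SE) for *Tlr7* KO with adjusted p = 0.0687, and -2.88 ± 0.61 for *Ifnar1* KO with adjusted p = 0.0256. *Irgm1* took a larger part of the summed member CPM in the knockouts, 29.4 to 43.1% in *Tlr7* KO and 28.3 to 50.9% in *Ifnar1* KO mice, than in WT, where it took 23.7 to 26.1%.

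*Irgm2*, which limits non-canonical inflammasome responses, was at 28.4, 8.56 and 26.7 CPM in WT, at 5.13, 13.6, 4.37, 4.01 and 11.1 CPM in *Tlr7* KO, and at 1.91, 5.68 and 0.376 CPM in *Ifnar1* KO mice, in order of mouse number. *Tlr7* KO 2 and 5 exceeded WT 2, and the other 3 *Tlr7* KO mice lay below every WT mouse. The log2 fold change was -1.49 ± 0.48 for *Tlr7* KO with adjusted p = 0.0396, and -3.03 ± 0.80 for *Ifnar1* KO with adjusted p = 0.0397. *Igtp* was at 59.9, 17.8 and 64.4 CPM in WT, at 5.90, 26.9, 4.44, 4.38 and 17.8 CPM in *Tlr7* KO, and at 1.5, 6.95 and 0.418 CPM in *Ifnar1* KO mice. It had the largest fall of the 8 members from WT to *Ifnar1* KO, -4.03 ± 0.90 on the log2 scale (adjusted p = 0.0271), and -2.01 ± 0.64 for *Tlr7* KO (adjusted p = 0.0386). Its part of the summed member CPM was 22 to 25.4% in WT and 8.77 to 16.5% in *Ifnar1* KO mice. In GENCODE, *Igtp* (chr11:58199556-58207591) and *Irgm2* (chr11:58199618-58222782) lie on the same strand and overlap over 7974 bases, of which 162 are exonic in both. The RefSeq promoter window of *Irgm2* begins at 58214727, past the end of *Igtp*, so this overlap rests on the GENCODE start of *Irgm2*. Of the 31-base words in *Igtp* transcripts, 15.9% also occur in *Irgm2* transcripts, so part of their reads could be split between them.

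*Iigp1* and *Tgtp1* are effector IRGs, which load onto the pathogen's vacuole and rupture it. *Iigp1*, on chromosome 18, was at 16.1, 5.15 and 15.9 CPM in WT, at 1.88, 5.46, 1.25, 1.61 and 6.34 CPM in *Tlr7* KO, and at 0.820, 3.4 and 0.0836 CPM in *Ifnar1* KO mice. The last value rests on 2 counts. *Tlr7* KO 2 and 5 again lay above WT 2, and the log2 fold change was -1.93 ± 0.56 for *Tlr7* KO with adjusted p = 0.0266, and -3.14 ± 0.89 for *Ifnar1* KO with adjusted p = 0.0482, the highest of the members. *Tgtp1* (chr11:48985327-48994172, minus strand) was at 10.8, 4.26 and 14.0 CPM in WT, at 1.95, 5.29, 0.683, 0.496 and 3.30 CPM in *Tlr7* KO, and at 0.546, 2.06 and 0 CPM in *Ifnar1* KO mice, where 0 counts in *Ifnar1* KO 3 allow up to 0.125 CPM. Only *Tlr7* KO 2 exceeded the lowest WT mouse. The log2 fold change was -2.07 ± 0.65 for *Tlr7* KO with adjusted p = 0.0356, and -3.5 ± 0.93 for *Ifnar1* KO with adjusted p = 0.0402. These values are uncertain, since *Tgtp1* shares 83.2% of its 31-base words with its near copy *Tgtp2*. *Tgtp2* itself had means of 15.2 CPM in WT, 4.67 CPM in *Tlr7* KO and 2.15 CPM in *Ifnar1* KO mice, with adjusted p = 0.0401 and 0.0609 against WT.

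The GBPs of chromosome 3 are larger GTPases that assemble on bacteria and on vacuoles. *Gbp2* (chr3:142620602-142638008), which acts against Toxoplasma and in caspase-11 activation, was at 43.6, 16.5 and 46.4 CPM in WT, at 6.24, 18.7, 3.15, 5.37 and 13.8 CPM in *Tlr7* KO, and at 2.60, 8 and 0.836 CPM in *Ifnar1* KO mice. It had the lowest adjusted p of the members in *Tlr7* KO (0.0228, log2 fold change -1.92 ± 0.53), and 1 *Tlr7* KO mouse lay above WT 2. In *Ifnar1* KO the log2 fold change was -3.25 ± 0.73 (adjusted p = 0.0277). *Gbp3* (chr3:142560026-142573209) was at 13.3, 3.92 and 14.1 CPM in WT, at 2.53, 7.20, 2.05, 2.11 and 5.51 CPM in *Tlr7* KO, and at 0.820, 1.68 and 0.251 CPM in *Ifnar1* KO mice. *Gbp3* had the largest estimate of the 8 members between the knockouts, with all *Tlr7* KO mice above all *Ifnar1* KO mice and a log2 fold change of 2.06 ± 0.60 that did not pass (adjusted p = 0.129). Against WT it was -1.45 ± 0.51 for *Tlr7* KO with adjusted p = 0.0528, and -3.53 ± 0.68 for *Ifnar1* KO with adjusted p = 0.0234. *Gbp7* (chr3:142530342-142550149), linked to oxidative killing and autophagy, was at 14.3, 3.75 and 11.7 CPM in WT, at 1.49, 5.85, 1.78, 2.56 and 6.19 CPM in *Tlr7* KO, and at 1.16, 2.39 and 0.376 CPM in *Ifnar1* KO mice. Its log2 fold change was -1.5 ± 0.54 for *Tlr7* KO with adjusted p = 0.0568, and -2.95 ± 0.68 for *Ifnar1* KO with adjusted p = 0.0288.

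Across these 8 genes the same mice stood out within each group. WT 2 was the lowest WT mouse and *Ifnar1* KO 2 the highest *Ifnar1* KO mouse for all 8 genes, and *Ifnar1* KO 3 was the lowest for all 8. Among *Tlr7* KO mice, *Tlr7* KO 2 was highest for 6 genes and *Tlr7* KO 5 for the other 2. Of the mice that stood out, *Ifnar1* KO 2 carried salivary gland transcripts (2091 CPM) and WT 2 muscle transcripts (214 CPM). *Ifnar1* KO 3, *Tlr7* KO 2 and *Tlr7* KO 5 carried neither. In *Tlr7* KO 2, T cell markers summed to 19.6 CPM and B cell markers to 36.7 CPM, against at most 8.49 and 15.0 CPM in the other *Tlr7* KO mice, and adipocyte markers summed to 21.2 CPM there, against 4.93 to 9.62 CPM in the others. *Tlr7* KO 5 had T and B cell sums of 8.49 and 11.5 CPM, near the 8.23 and 15.0 CPM of *Tlr7* KO 1. Its GTPase genes summed to 90.7 CPM, against 38.9 CPM in *Tlr7* KO 1. In *Ifnar1* KO 3, T and B cell markers summed to 1.13 and 1.88 CPM, the lowest of the 11 mice. The part of these transcripts in the order of the mice was not tested.

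**Figure D3:**
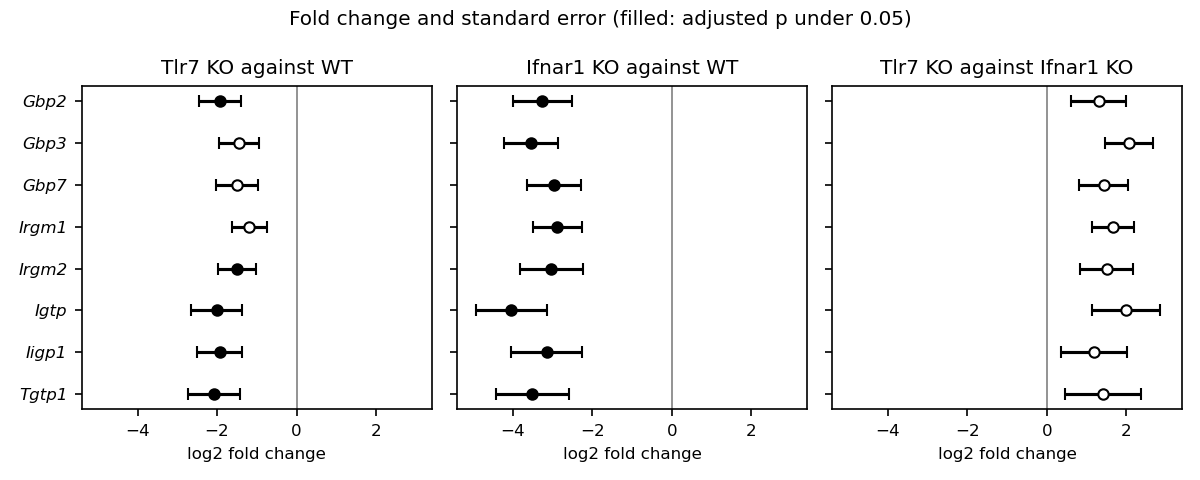
Log2 fold change of each member with 1 standard error in the 3 comparisons, with filled points at an adjusted p under 0.05 (edgeR). The points lie left of 0 for both knockouts against WT and right of 0 for *Tlr7* KO against *Ifnar1* KO, where none is filled.

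The 2 rows named *Gbp5* and *Gbp6* in the other table followed the members. GBP5 promotes NLRP3 inflammasome assembly. The row with its name is called *Gbp2b* in the main table and in GENCODE release M21, so its values cannot be assigned to *Gbp5* here. It was at 11.3, 2.68 and 11.4 CPM in WT, at 1.84, 4.20, 1.33, 1.90 and 3.09 CPM in *Tlr7* KO, and at 0.683, 2.39 and 0.293 CPM in *Ifnar1* KO mice. The row named *Gbp6* is called *Gm43302* in the main table, a gene model on chromosome 5 of which 95.7% of 31-base words occur in *Gbp6* transcripts. It was at 25.1, 12.1 and 26.2 CPM in WT, at 4.25, 14.7, 3.61, 3.63 and 11 CPM in *Tlr7* KO, and at 0.922, 3.51 and 0.293 CPM in *Ifnar1* KO mice. Both fell past edgeR's test, with adjusted p = 0.0193 and 0.0387 for *Tlr7* KO and 0.0406 and 0.0230 for *Ifnar1* KO, and neither was called between the knockouts.

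Other genes of the 2 GTPase families were read from a list of 17, of which 14 were tested. For this and the IFN lists below, 17.4% of all genes were called lower in *Tlr7* KO and 12.4% in *Ifnar1* KO. Between the knockouts, 0.926% were called higher in *Tlr7* KO, and 16.3% had an unadjusted p under 0.05. In *Tlr7* KO, 7 of 14 fell (*Gbp4*, *Gbp8*, *Gbp9*, *Tgtp2*, *Irgc1*, *9930111J21Rik1* and *9930111J21Rik2*), and the median was -1.75 on the log2 scale. In *Ifnar1* KO, 7 of 14 fell (*Gbp9*, *Gm12250*, *Gm4841*, *Gm4951*, *Gm5431*, *9930111J21Rik1* and *9930111J21Rik2*), with a median of -2.74. *Gm4841* and *Gm4951* in *Ifnar1* KO and *Irgc1* in *Tlr7* KO had every knockout mouse at 3 counts or fewer. They met the filter, which reads the WT mice alone, only through the group where they were high, so their falls were favoured by it. With edgeR's own filter, which reads all mice compared, 10 genes of the list were tested, and 6 were called in *Tlr7* KO and 5 in *Ifnar1* KO. Both medians set a gene with all mice of a knockout at 3 counts or fewer to the fold that 3 counts per library allow. No gene of the list passed between the knockouts with edgeR, against 4 of 14 at an unadjusted p under 0.05 and 1 with DESeq2. *Irgq*, an IRG-like gene that is not known as IFN-induced, had means of 10.1, 11 and 10.7 CPM in WT, *Tlr7* KO and *Ifnar1* KO mice, and *F830016B08Rik* was at 0.701, 0.508 and 0.457 CPM. The remaining *Gm12185* (0.585, 0.167 and 0.0737 CPM) passed in neither knockout. *Gbp11* was not tested, with at most 4 counts in any mouse. The count in *Tlr7* KO was 1 without WT 1 or WT 3, 2 without *Tlr7* KO 3 or 4, 3 without *Tlr7* KO 1 and 10 without WT 2. In *Ifnar1* KO it was 0 whenever WT 1, WT 3, *Ifnar1* KO 1 or 3 was dropped, and 12 when WT 2 was. The same 4 omissions left 0 called in *Ifnar1* KO for each IFN list below but the type I targets, where 1 passed without WT 3.

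The IFN-γ pathway itself was examined next. *Ifng* was at 10 counts in WT 1 and at no more than 1 count in each of the other 10 mice, too few to test. Of the 8 tested signalling genes, 6 fell in *Tlr7* KO and 6 in *Ifnar1* KO, beside 17.4% and 12.4% of all genes. The receptor chains *Ifngr1* and *Ifngr2* fell by 0.64 and 0.50 on the log2 scale in *Tlr7* KO (adjusted p = 0.0185 and 0.0479) and by 0.97 and 1 in *Ifnar1* KO (adjusted p = 0.0341 and 0.0339). The kinase *Jak2* fell by 1.11 and 1.38 (adjusted p = 0.00437 and 0.0230), whereas *Jak1* had estimates of 0.11 and -0.17 that passed neither test. *Irf1* fell from a mean of 32.9 CPM in WT to 15.6 CPM in *Tlr7* KO and 7.06 CPM in *Ifnar1* KO mice (adjusted p = 0.0401 and 0.0281). *Irf8* fell from 29.3 to 15.7 CPM in *Tlr7* KO (adjusted p = 0.0266) and was at 14.7 CPM in *Ifnar1* KO (adjusted p = 0.0517). The feedback inhibitor *Socs1* was at 1.73, 0.556 and 0.174 CPM and passed only in *Ifnar1* KO (adjusted p = 0.0269, against 0.130 in *Tlr7* KO). The *Tlr7* KO count fell to 1 of 8 without WT 1 or WT 3, to 2 without *Tlr7* KO 1, 3 or 4, and to 3 when all 11 mice were fitted at once.

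Targets that lean to IFN-γ were also lower in both knockouts. Of 10 tested, 8 fell in *Tlr7* KO and all 10 in *Ifnar1* KO, beside 17.4% and 12.4% of all genes. The median log2 fold changes were -2.01 and -3.02, and 0 of 10 passed between the knockouts with edgeR (4 at an unadjusted p under 0.05, 1 with DESeq2). The most abundant were the MHC class II genes *Cd74*, *H2-Aa* and *H2-Ab1*, which B cells also express without IFN. *Cd74* was at 693 CPM in WT, 176 CPM in *Tlr7* KO and 116 CPM in *Ifnar1* KO mice on average (adjusted p = 0.00474 and 0.0274 against WT). *H2-Aa* was at 331, 87.7 and 52.6 CPM, and *H2-Ab1* at 262, 63.9 and 37.8 CPM. *Batf2*, with every *Ifnar1* KO mouse at 3 counts or fewer, met the filter only through WT and stands in the *Ifnar1* KO median at its bound. In *Tlr7* KO the count was 6 to 10 of 10 whichever mouse was left out.

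Targets that lean to type I IFN were lower past the test in *Ifnar1* KO and not in *Tlr7* KO. In *Tlr7* KO, 0 of 18 passed with edgeR and 0 with DESeq2, with 1 of 18 at an unadjusted p under 0.05 and a median of -0.50 on the log2 scale. Of all genes, 17.4% were called lower with edgeR and 44.9% had an unadjusted p under 0.05. Across the alternative settings that keep all mice, 0 to 4 of 18 were called. In *Ifnar1* KO, 16 of 18 fell, beside 12.4% of all genes, with a median of -3.27. Between the knockouts, 16 of 18 were higher in *Tlr7* KO, beside 0.926% of all genes, with a median of 2.87. *Irf7*, the master regulator of the type I IFN response, had means of 23.6, 18.1 and 1.42 CPM in WT, *Tlr7* KO and *Ifnar1* KO mice, and *Ifit3*, which restrains viral RNA, of 12.7, 7.71 and 0.947 CPM. *Oasl2* was at 14.5, 8.09 and 1.54 CPM. All 3 passed in *Ifnar1* KO against WT (adjusted p = 0.0207 to 0.0230) and between the knockouts (adjusted p = 0.00804 to 0.0458). The low count in *Tlr7* KO depended on WT 2, whose summed level of these 18 genes was 41.8 CPM against 146 and 150 CPM in WT 1 and WT 3. Without WT 2, 9 of 18 fell in *Tlr7* KO, and 1 without *Tlr7* KO 2. Between the knockouts, where the other GTPase, IFN-γ signalling and IFN-γ leaning lists had 0 called, 3, 2 and 3 were called without *Ifnar1* KO 2. *Oas2*, at 0 counts in all 3 *Ifnar1* KO mice, met the filter on WT counts only through the groups where it was present, and its calls were favoured by it. Between the knockouts the count was 4 without *Ifnar1* KO 1, 7 without *Tlr7* KO 3 or 5, 8 without *Ifnar1* KO 3, 9 without *Tlr7* KO 1, and 12 to 18 with any other mouse left out, and it was 5 when all 11 mice were fitted at once.

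**Figure D4:**
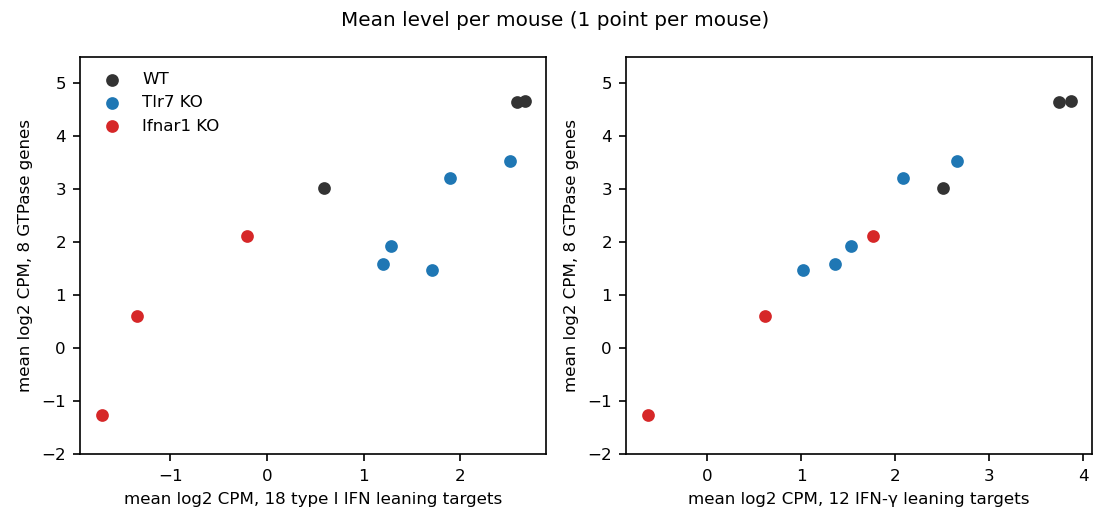
Mean log2 CPM of the 8 GTPase genes in each mouse against the mean of 18 type I IFN leaning targets (left) and of 12 IFN-γ leaning targets (right), with 1 point per mouse. On the left every WT mouse has a larger excess of GTPase level over type I target level than every *Tlr7* KO mouse. The type I target levels were 0.59, 2.59 and 2.67 in WT and 1.21 to 2.52 in *Tlr7* KO mice. No WT mouse lies within that *Tlr7* KO range, so GTPase levels are not compared at equal type I target level. On the right the WT mice (2.50 to 3.87) and the *Ifnar1* KO mice (-0.63 to 1.76) share no range of IFN-γ leaning target levels. Their GTPase levels therefore cannot be compared there at equal target level.

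Within each mouse, the mean log2 CPM of the GTPase genes was set against that of the type I IFN leaning targets. The GTPase mean exceeded the type I mean by 2.05, 2.43 and 2.01 in WT 1 to 3 and by 0.65, 1.03, -0.24, 0.38 and 1.32 in *Tlr7* KO 1 to 5, so that these 2 groups did not overlap, WT 2 included. The type I means were 2.59, 0.59 and 2.67 in WT and 1.28, 2.52, 1.71, 1.21 and 1.89 in *Tlr7* KO mice. As no WT mouse lay within the *Tlr7* KO range, these groups are not compared at equal type I level. T cell markers averaged 2.21, 0.46 and 2.06 in WT and -0.18, 1.09, -0.97, -0.31 and -0.15 in *Tlr7* KO mice. Set against the type I mean, they did not overlap either, so the separation is not particular to the GTPase genes. In *Ifnar1* KO 1 to 3 the GTPase excess was 1.95, 2.32 and 0.45, which spans both other groups. Against the IFN-γ leaning targets the GTPase excess was 0.52 to 0.91 in WT, 0.23 to 1.14 in *Tlr7* KO and -0.63 to 0.36 in *Ifnar1* KO mice. Here WT and *Ifnar1* KO did not overlap, while *Tlr7* KO overlapped both. WT and *Ifnar1* KO mice shared no range of IFN-γ leaning target levels (2.50 to 3.87 and -0.63 to 1.76). The excess therefore does not compare these groups at equal target level, and nothing is concluded from their separation. Over 11 mice the GTPase mean correlated with the IFN-γ leaning targets at r = 0.989 (0.987 after removing group means) and with the type I IFN leaning targets at r = 0.857 (0.845). The difference between lists was not tested.

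Components of type I and type III IFN sensing were read on 7 tested genes. *Stat2*, which acts with IRF9 on the ISRE, had means of 34.1 CPM in WT, 33.2 CPM in *Tlr7* KO and 13.4 CPM in *Ifnar1* KO mice and differed between the knockouts (adjusted p = 0.0342), but not past the test from WT in *Ifnar1* KO (adjusted p = 0.0557). *Tyk2*, a kinase of IFNAR1, was at 14.0, 15.6 and 13.5 CPM and passed in no comparison. *Il10rb*, a chain of the type III IFN receptor, fell from 17.1 to 13.2 and 12.1 CPM (adjusted p = 0.0139 and 0.0372). In all, *Tlr7* KO mice had 3 of 7 lower past the test and *Ifnar1* KO mice 4 of 7, and 2 were higher in *Tlr7* KO than in *Ifnar1* KO. The shares of all genes were 17.4%, 12.4% and 0.926%, respectively. The *Tlr7* KO count was 0 without WT 3 and 1 without WT 1, and the *Ifnar1* KO count was 2 without *Ifnar1* KO 2. Between the knockouts it was 0 without *Ifnar1* KO 1 or *Tlr7* KO 5, and 1 without *Ifnar1* KO 3 or *Tlr7* KO 1, 3 or 4.

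Partners of the GTPases were read last. Among 12 autophagy and inflammasome genes, 4 fell and 1 rose in *Tlr7* KO, and 6 fell in *Ifnar1* KO, where 32.7% and 19.2% of all genes were called either way, so the *Tlr7* KO share is near that of all genes. The 3 most abundant belong to the ATG conjugation machinery that loads GBPs and IRGs onto vacuoles. *Atg3* was at 31.3, 39.0 and 38 CPM in WT, *Tlr7* KO and *Ifnar1* KO mice, and was the gene that rose in *Tlr7* KO (adjusted p = 0.0385). *Gabarapl2* was at 24.7, 26.8 and 26.4 CPM and *Atg5* at 18.9, 22.9 and 21.8 CPM, and neither passed in any comparison. *Aim2*, *Casp1*, *Casp4* and *Gsdmd*, which act in inflammasomes and were named after their values were seen, were the 4 that fell in *Tlr7* KO, and they fell in *Ifnar1* KO too. Their means ran from 2.88 to 6.15 CPM in WT, 0.662 to 1.92 CPM in *Tlr7* KO and 0.534 to 1.04 CPM in *Ifnar1* KO mice. In *Tlr7* KO 3 of the 12 passed without WT 1 or WT 3 and 9 without WT 2. In *Ifnar1* KO 0 passed without WT 1, WT 3 or *Ifnar1* KO 1 or 3, and 3 without *Ifnar1* KO 2.

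**Figure D5:**
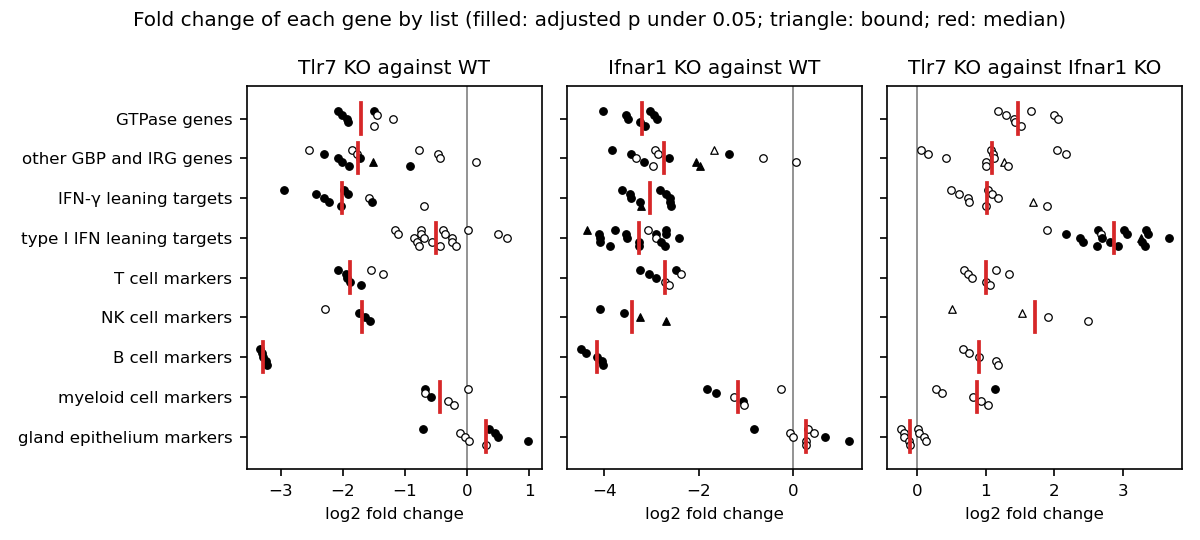
Log2 fold change of each tested gene by list in the 3 comparisons, with filled symbols at an adjusted p under 0.05, triangles at the bound that 3 counts per library allow, and a red line at each list's median. In *Tlr7* KO against WT the type I IFN leaning targets spread from -1.16 to 0.64 (median -0.50, 0 called, but 9 of 18 without WT 2), and the GTPase genes have a median of -1.71.

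Markers of cells that make or answer IFN-γ, and of other cells, were read in the same groups. Of all genes tested, 17.4% were called lower in *Tlr7* KO and 12.4% in *Ifnar1* KO (32.7% and 19.2% in either direction). T cell markers summed to 16.1 to 50.5 CPM in WT, 4.29 to 19.6 CPM in *Tlr7* KO and 1.13 to 10 CPM in *Ifnar1* KO mice, with 5 of 7 lower past the test for *Tlr7* KO and 4 of 7 for *Ifnar1* KO, led by *Cd4* (means of 14.7, 3.82 and 1.82 CPM), *Cd3g* (8.82, 2.11 and 0.943 CPM) and *Cd3e* (4.72, 1.29 and 0.636 CPM). NK cell markers summed to 3.15 to 8.64, 1.34 to 2.83 and 0.0418 to 0.860 CPM, with 3 of 4 and 4 of 4 called lower. *Klrb1c* and *Eomes* had every *Ifnar1* KO mouse at 3 counts or fewer and met the filter on WT counts only through WT, so their falls were favoured by it. WT 2 was the lowest WT mouse for the leukocyte, T, NK and B cell lists. B cell markers summed to 60.6 to 208, 4.29 to 36.7 and 1.88 to 15.5 CPM, with 5 of 5 called lower in each knockout. Leukocyte markers fell for 4 of 5 genes in each knockout, with *Lcp1* at 134, 134 and 132 CPM as the exception. Myeloid markers summed to 177 to 321 CPM in WT, 156 to 180 CPM in *Tlr7* KO and 50.2 to 142 CPM in *Ifnar1* KO mice, with 2 of 6 and 3 of 6 called lower. The 2 of 6 in *Tlr7* KO is near the 32.7% of all genes called in either direction. In *Ifnar1* KO none of these calls remained without WT 1, *Ifnar1* KO 1 or *Ifnar1* KO 3, and without WT 3 only 1 B cell marker was called. Without WT 2 the T cell calls rose to 7 of 7 (as with DESeq2) and the myeloid calls to 5 of 6 (as with all 11 mice fitted at once). In *Tlr7* KO the 5 B cell and 4 leukocyte calls were made whichever mouse was left out, while T cell calls numbered 2 without WT 1 or WT 3, NK cell calls 1 without WT 1 and 0 without WT 3, and myeloid calls 0 without WT 1, 1 without WT 3, *Tlr7* KO 1, 3 or 4 or in the single fit, 4 by library totals alone and 5 without WT 2. Gland epithelium markers had 4 of 9 called higher and 1 lower in *Tlr7* KO, but 1 higher and 2 lower when scaled to the library totals alone. In *Ifnar1* KO, 2 were called higher and 1 lower, against 1 higher and 0 lower by library totals, 4 higher and 1 lower in the single fit, 1 in all without *Ifnar1* KO 2 and 0 when WT 1 or 3 or *Ifnar1* KO 1 or 3 was dropped. Endothelial markers, with 2 of 5 called lower in each knockout and 1 higher in *Tlr7* KO, summed to 14.6 to 25.5, 10.6 to 14.6 and 6.98 to 9.91 CPM. The *Tlr7* KO calls fell to 1 without WT 3 or *Tlr7* KO 1, 3 or 5 and in the other count table. The *Ifnar1* KO calls fell to 1 without *Ifnar1* KO 2, by library totals or RLE factors, without a gene filter, in the other count table and with robust estimation, and to 0 without WT 1, WT 3 or *Ifnar1* KO 1 or 3. Adipocyte markers summed to 2.05 to 21.2 CPM over all mice, with 0 of 4 called against WT (0 also at an unadjusted p under 0.05). In *Ifnar1* KO 3, 2 of 7 T cell, 3 of 4 NK cell and 3 of 5 B cell markers were at 0 counts.

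The part of immune cell content in the GTPase differences was not tested, and these values stand beside them. Over 11 mice the GTPase mean correlated with T cell markers at r = 0.965, with NK cell markers at 0.956, with pan-leukocyte markers at 0.953 and with B cell markers at 0.924. After removing group means these became 0.933, 0.930, 0.916 and 0.896. For myeloid markers r was 0.898 (0.786 after removing group means), for endothelium 0.750 (0.235) and for adipocytes 0.713 (0.731). For gland epithelium it was -0.699 (-0.237), for salivary gland 0.127 (0.603) and for skeletal muscle 0.289 (-0.0947). Relative to pan-leukocyte markers, the GTPase mean lay at -1.77 to -1.24 on the log2 scale in WT, -2.30 to -0.79 in *Tlr7* KO and -3.70 to -1.91 in *Ifnar1* KO mice.

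Genes outside the list were ranked by how closely their log2 CPM followed the standardised mean of the members over the 11 mice. The closest of 13927 genes was *Ifi47* (r = 0.995), itself an IRG gene (Irgd) that was on no list here. It was followed by *Gm12250*, another IRG gene (Irgb10), at 0.994, and by *S100a4*, *Cd40*, *AW112010*, *Cd96*, *Irf1* and *Tap1* at 0.994 to 0.991. *Cd40* is a costimulatory receptor of B cells and other antigen-presenting cells, *Cd96* a receptor of T and NK cells, and *Tap1* the peptide transporter of MHC class I loading. These genes share each mouse's library and cell makeup with the members, and the likeness is a description over 11 mice.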

How the data were processed

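The authors aligned reads with HISAT2 2.1.0 (mm10, per the labels) and estimated transcript abundance with salmon, summed to genes by tximport. The main deposited table is named as normalized but holds unnormalized expected counts (estimated counts) for 19058 genes, rounded here to whole numbers. Another deposited file gives whole-number counts over 39017 genes (its counter is not given in the sources used here) and served as an alternative. In it, 1 sample column, named as an *Ifnar1* KO library, matched no labelled sample and was not used. The study's methods state that an *Ifnar1* KO sample resembling WT was dropped after inspection of its expression and inflammation. CPM were computed here with TMM factors.

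Genes with at least 30 counts summed over the WT mice were tested with edgeR 4.0.16 (quasi-likelihood test, two-sided, R 4.3.3), in separate fits of each pair of groups, and called at an adjusted p under 0.05 (Benjamini-Hochberg over all genes tested). The standard error is the estimate divided by the root of its F statistic. DESeq2 1.42.0, RLE factors, library size only, other filters, a single fit, a replicate block and leaving out each mouse were alternatives. Each sample is 1 mouse, so p-values measure the spread between mice. Log2 levels use a prior count of 2. The fits were tested on simulated data. Annotation is GENCODE M21 on GRCm38.

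Members and lists were chosen with earlier results of these data known, and lists were written from general knowledge. Named genes are the members, the targeted genes, the genes of the GTPase and IFN-γ signalling lists (1 is not reported here), the 3 most abundant of each other list (printed for the IFN, partner and T cell lists), and the 8 genes most alike. Replicate numbers did not pair the mice.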

Additional observations from a re-analysis of the deposited data

How the results depend on the processing

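Of the fold changes of the 8 GTPase genes recomputed under the alternatives, none changed direction in any comparison. In *Tlr7* KO against WT they ranged from -2.72 to -0.96 on the log2 scale (adjusted p = 0.00474 to 0.324), in *Ifnar1* KO against WT from -5.61 to -2.50 (adjusted p = 1.17e-06 to 0.156) and in *Tlr7* KO against *Ifnar1* KO from 0.65 to 3.57 (adjusted p = 0.00162 to 0.746). The number of GTPase genes called did depend on the processing, and the cause was not tested.

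Of 8 GTPase genes in *Tlr7* KO, 5 passed, but 0 at the 0.01 level, 8 when scaled to the library totals alone, 1 with all 11 mice in a single fit, 2 with robust estimation (an alternative added after the data were seen) and 0 to 8 with 1 mouse left out. Against 8 of 8 in *Ifnar1* KO, 0 passed at 0.01 and 0 to 8 with 1 mouse left out. Not all 8 passed with DESeq2 (highest adjusted p = 0.0818), or with edgeR under RLE factors (0.0506) or robust estimation (0.0590). The lowest adjusted p was 1.17e-06 with DESeq2 and 0.00379 in the single edgeR fit, both under 0.01. Between the knockouts, 0 to 3 passed with 1 mouse left out. The library totals alone put the median of all genes at -0.54, -0.31 and -0.19 in the 3 comparisons, and the GTPase medians were then -2.37, -3.59 and 1.23.

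Over all genes, 4564 were called in *Tlr7* KO, 1969 at 0.01 and 2601 to 6595 with 1 mouse left out. Library totals alone made 4275 lower and 123 higher, against 2429 and 2135. In *Ifnar1* KO, 2677 were called, 1 at 0.01, 1339 with library totals alone (1288 lower and 51 higher, against 1735 and 942), 5124 in the single fit and 0 to 4643 with 1 mouse left out. Between the knockouts, 250 were called, 30 at 0.01, 577 with DESeq2, 93 in the single fit and 85 to 877 with 1 mouse left out. Library totals alone made 118 lower and 52 higher in *Tlr7* KO, against 121 and 129.

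The mice share only replicate numbers. Deviations from the group means correlated at -0.40 to 0.03 between same-numbered WT and *Tlr7* KO mice, at -0.44 to -0.16 for WT and *Ifnar1* KO and at 0.06 to 0.34 for the knockouts. With the replicate number as a block, 0, 0 and 5 of the 8 GTPase genes and 14, 0 and 502 of all genes were called in the 3 comparisons.

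Depth limits the lowest values, as *Iigp1* and *Tgtp1* had 2 and 0 counts in *Ifnar1* KO 3.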
